A study of Mus musculus with 9 samples.

Results

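The 10 genes examined here belong to the cGAS–STING pathway and to the nucleases that limit its DNA ligands, and they were measured in the mouse hippocampus by bulk RNA-seq. They are the sensor Cgas and its adaptor Sting1, the kinases Tbk1 and Ikbke with the transcription factor Irf3, and the enzymes Trex1, Samhd1, Rnaseh2a, Rnaseh2b and Rnaseh2c. They were chosen by name and not by their values, but with earlier results of these data known, as were the gene lists used below. All were found by symbol in the GENCODE M39 annotation of GRCm39, as 10 of the 57010 gene identifiers of the count table. Of the 10, 9 had counts and Trex1 was listed at 0 in all 9 libraries.

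The study collected hippocampi of 9 wild-type C57BL/6J mice in 3 groups of 3. The young mice were 10 weeks old and untreated. The aged mice, 20 months old when treatment began, received by intraperitoneal injection either DMSO, the vehicle, or 750 nmol of H-151 (labelled H151), a small-molecule inhibitor of STING, on 5 days a week in 2 courses of 8 weeks separated by 8 weeks of rest, 24 weeks in all. The column names of the deposited tables did not match the label of any single mouse or group, so the 9 libraries are described together as hippocampi, numbered 1 to 9 by column, and no group is compared with another. A library number carries no information on age or treatment, and the spread over libraries includes whatever age and treatment contribute.

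cGAS binds double-stranded DNA in the cytosol and makes the cyclic dinucleotide cGAMP, which activates STING on the endoplasmic reticulum. STING then moves to the Golgi and recruits TBK1, which phosphorylates the transcription factor IRF3, so that type I interferon and interferon-stimulated genes (ISGs) are transcribed. TREX1, SAMHD1 and RNase H2 remove or limit the nucleic acids that could start this cascade, and their loss in humans causes Aicardi–Goutières syndrome, an interferonopathy of the brain. In brain, cGAS and STING are best known from microglia, the resident macrophages.

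Total counts ranged from 23477970 in library 7 to 38164340 in library 1. Markers of neurons (8 genes), of the hippocampus (6 genes, among them Prox1 and Neurod1), of astrocytes, oligodendrocytes and microglia were all detected at a median of at least 1 TPM (counts scaled by gene length and then by depth). Library 4 stood apart from the rest. Its median r with the other libraries, across genes, was 0.984, whereas the other 8 had medians of at least 0.988, and it was the lowest library for 22.2% of the 15337 genes with a median count of at least 50. The summed level of 5 endothelial markers was 300 CPM (counts scaled by library size, with TMM factors) there and at most 223 in the others, and Neurod1, a gene of granule neurons, had its lowest value there at 13.9 CPM. Many of the values below, correlations above all, change when this library is left out, and those without a second value are for all 9 libraries.

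The absence of counts for Trex1, the main exonuclease for cytosolic DNA, coincided with its place in the genome. Trex1 (ENSMUSG00000049734) spans 108887001 to 108888802 on the minus strand of chromosome 9, and all 1147 of its exon bases also belong to exons of Atrip, a checkpoint gene on the same strand. The window that opens the Trex1 coding sequence, printed below because Atrip transcripts carry it too, lies at chr9:108887960-108887989 on the minus strand, with the start codon in capitals.
Trex1 start: ATGggctcacagaccctgccccatggtcac
These 30 bases occurred in both annotated Trex1 transcripts and in 18 of the 71 annotated Atrip transcripts. A read from here can thus come from either gene, and Atrip had 655 to 1018 counts per library. Among all protein-coding genes whose exon bases were entirely shared with a gene of the same strand, 92 of 154 (59.7%) were listed at 0, against 2497 of 19730 (12.7%) with no such overlap. The share was similar, 18 of 31 (58.1%), for genes entirely shared with a gene of the opposite strand alone. A count of 0 here limits Trex1 counts to at most 0.0777 to 0.129 CPM, depending on depth, by the counting error alone (3 counts per library), which holds only for reads that could be assigned to Trex1. The other 62 of the 154 genes shared on the same strand did have counts. How reads shared by 2 genes were counted is not given in the sources used here, and its part in the 0 of Trex1 was not tested.

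Per length, the kinase Tbk1 and the transcription factor Irf3 were the most abundant members and the sensor Cgas was the least abundant of the 9 with counts. Tbk1 had 39.4 TPM in its lowest library, a median of 46.7 and 54.5 in its highest. Irf3 had 21.1, 39.4 and 49.9 TPM by the same measures. They were followed by 3 of the nucleic acid enzymes, with medians of 25.8 TPM for Rnaseh2c, 21.1 for Rnaseh2a and 14.2 for Samhd1. Sting1 reached a median of 4.48 TPM, Rnaseh2b 3.46, Ikbke 1.49 and Cgas 1.41. Among the 18954 detected protein-coding genes, Tbk1 stood at the 81.3 percentile of median TPM and Irf3 at 77.8, whereas Sting1 stood at 36.6, Ikbke at 26.3 and Cgas at 25.8. In bulk RNA, fewer cells of a type and less RNA per cell cannot be told apart, so a low TPM does not say how strongly any single cell type expressed the gene.

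**Figure D1:**
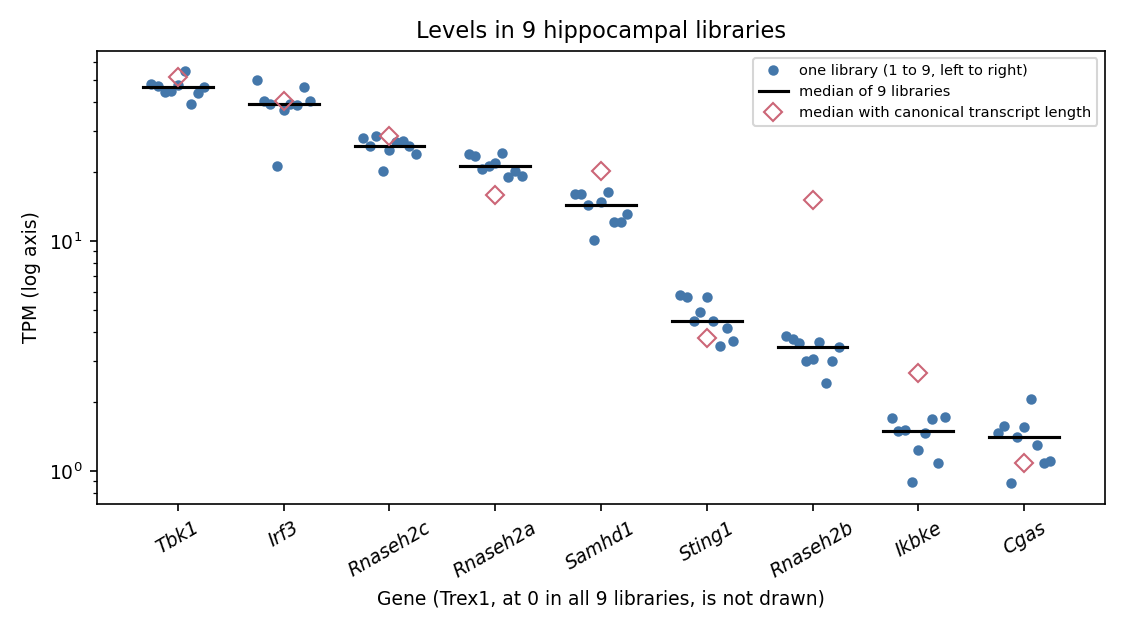
Level of the 9 genes with counts in TPM (log axis) in the 9 hippocampal libraries, ordered by the median. Points are single libraries, black bars are medians, and open diamonds are medians computed with the length of the Ensembl canonical transcript. Tbk1 (median 46.7 TPM) and Cgas (median 1.41 TPM) stand at the ends, and the diamond of Rnaseh2b lies far above its bar.

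Neighbours in this order were not all separated. The ranges over libraries did not overlap between Rnaseh2a and Samhd1, Samhd1 and Sting1, or Rnaseh2b and Ikbke, whereas they overlapped between Tbk1 and Irf3, Irf3 and Rnaseh2c, Rnaseh2c and Rnaseh2a, Sting1 and Rnaseh2b, and Ikbke and Cgas. Within libraries, Irf3 exceeded Rnaseh2c and Sting1 exceeded Rnaseh2b in 9 of 9, Tbk1 exceeded Irf3 in 7 of 9, and Ikbke exceeded Cgas in 4 of 9. The order also depended on the gene length used. With the canonical transcript in place of the union of all exons, 6 of the 10 genes kept their place. Rnaseh2b, whose exons in all transcripts cover 10696 bases and whose canonical transcript has 1515, went from 3.46 to 15.0 TPM, and Samhd1 moved above Rnaseh2a with medians of 20.1 and 15.8 TPM.

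The sensor and its adaptor were both low. Cgas (ENSMUSG00000032344, minus strand of chromosome 9, 78337802 to 78350535) encodes the DNA sensor and had 35 to 79 counts per library. On scaled library sizes its lowest value was 1.00 CPM in library 3, its median 1.64 and its highest 2.06 in library 6. The exact Poisson 95% intervals of these 2 libraries, 0.70 to 1.40 CPM and 1.63 to 2.56 CPM, did not overlap, and without library 3 the ratio of highest to lowest fell from 2.05 to 1.65. Such intervals cover counting error only, and the 2 libraries were picked as the lowest and highest of 9. Sting1 (ENSMUSG00000024349, minus strand of chromosome 18) encodes the cGAMP receptor. It had 2.57 CPM in library 9, its lowest, a median of 3.13 and 3.76 CPM in library 2, its highest, and the intervals of those libraries overlapped. Libraries 1, 2, 4 and 5 lay between 3.70 and 3.76 CPM, and libraries 6 to 9 lay between 2.57 and 2.97. Per length, Sting1 exceeded Cgas in every library, by a median of 3.65 times and by 2.18 to 5.07 times.

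**Figure D2:**
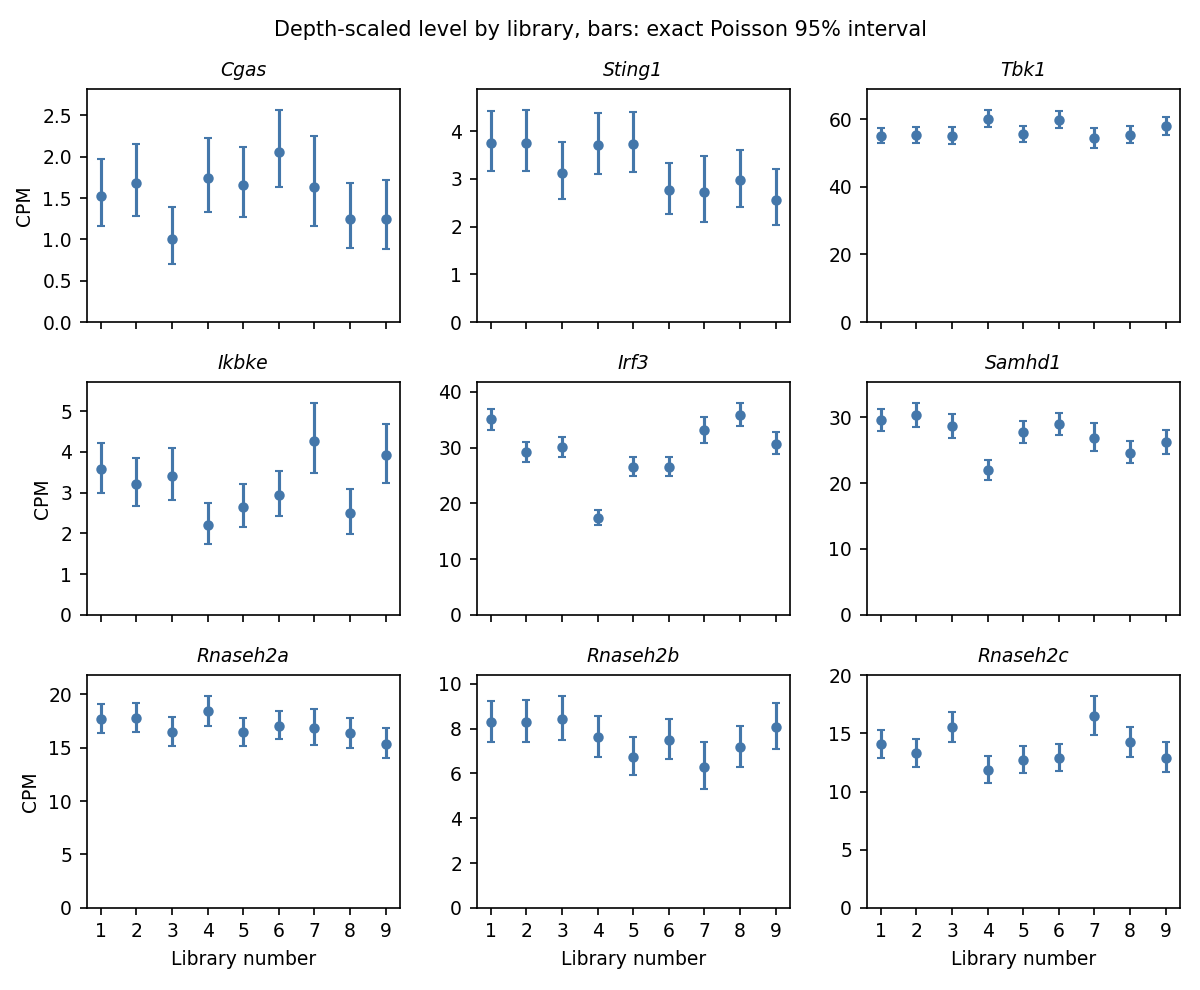
Level of each of the 9 genes in CPM against library number, with bars for the exact Poisson 95% interval and axes from 0. Library 4 is the lowest for Ikbke, Irf3, Samhd1 and Rnaseh2c and the highest for Tbk1 and Rnaseh2a.

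The kinases differed both in level and in spread. Tbk1 (ENSMUSG00000020115, minus strand of chromosome 10, 121382360 to 121422848) encodes the kinase that STING recruits and had 54.3 CPM in library 7, a median of 55.4 and 60 CPM in library 4. Its highest value was 1.11 times its lowest, at the 2.15 percentile of this ratio over genes with a median count of at least 10. Ikbke (ENSMUSG00000042349, minus strand of chromosome 1, 131182080 to 131207346) encodes the related kinase IKKε, which can act in place of TBK1. It ran from 2.21 CPM in library 4 through a median of 3.22 to 4.27 CPM in library 7, a ratio of 1.93 (1.71 without library 4). Per length, Tbk1 stood a median of 31.6 times above Ikbke, from 23.3 times in library 7 to 49.9 times in library 4 (at most 40.8 times without it), and a median of 19.4 times with canonical lengths.

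Irf3 had the highest dispersion index, defined below, among the 9 genes, but not the widest ratio of highest to lowest without library 4. It lies on the plus strand of chromosome 7 from 44647033 to 44652272 (ENSMUSG00000003184) and encodes the transcription factor that TBK1 phosphorylates. Library 4 had 17.5 CPM, the next lowest libraries, 5 and 6, had 26.6 each, the median was 30.1 and library 8 had 35.9. The highest value was 2.06 times the lowest and 1.35 times without library 4. The ratio was 2.05 for Cgas with or without library 4, and 1.71 for Ikbke without it. The dispersion index, which compares the scatter of counts about a common rate with Poisson scatter and is near 1 for counting noise, was 37.7 for Irf3, at the 91.3 percentile of 19912 genes, and 14.7, at the 80.9 percentile, without library 4. It was 9.17 for Samhd1 (4.30 without library 4) and between 1.70 and 4.75 for the other 7. Among these 7, Cgas had 2.31, at the 24.9 percentile (1.52, at the 12.6 percentile, without library 3). At a given relative spread the index grows with the count. Exons of Irf3 overlapped those of Bcl2l12 and Scaf1 on the opposite strand over 4.17% of their bases.

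Samhd1 encodes a phosphohydrolase that depletes deoxynucleotides. This gene (ENSMUSG00000027639, minus strand of chromosome 2, 156939453 to 156977187) had 22.0 CPM in library 4, a median of 27.7 and 30.3 CPM in library 2. Without library 4 the highest value was 1.23 times the lowest. The next lowest library, 8, had 24.6 CPM.

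The 3 subunits of RNase H2, which removes ribonucleotides from DNA and RNA from RNA–DNA hybrids, had medians of 21.1, 3.46 and 25.8 TPM for Rnaseh2a, Rnaseh2b and Rnaseh2c on union exon length, and of 15.8, 15.0 and 28.4 TPM on canonical length. The ratio of Rnaseh2a to Rnaseh2b thus went with the length used, from a median of 6.62 to 1.14 (0.952 to 1.34 over libraries). No pair of the subunits had an r past 0.7 in size over all 9 libraries. Rnaseh2a (ENSMUSG00000052926, minus strand of chromosome 8, 85683232 to 85696408) encodes the catalytic subunit and ran from 15.4 CPM in library 9 through a median of 16.9 to 18.4 in library 4. Its dispersion index of 1.70 was the lowest of the members. Rnaseh2b (ENSMUSG00000021932, plus strand of chromosome 14, 62530038 to 62630559) encodes an accessory subunit and ran from 6.30 CPM in library 7 through 7.62 to 8.44 in library 3. Rnaseh2c (ENSMUSG00000024925, plus strand of chromosome 19, 5651868 to 5657526), the other accessory subunit, ran from 11.8 CPM in library 4 through 13.3 to 16.5 in library 7. Between the subunits r was 0.124 for Rnaseh2a with Rnaseh2b, -0.233 for Rnaseh2a with Rnaseh2c and -0.214 for Rnaseh2b with Rnaseh2c. Single libraries turned the sign of the last 2, to 0.098 without library 4 for Rnaseh2a with Rnaseh2c and to 0.419 without library 7 for Rnaseh2b with Rnaseh2c. Exons on the opposite strand covered 26.3% of Rnaseh2c (by Kat5) and 20.9% of Rnaseh2a (by Prdx2 and Rtbdn), and Gm49661, which was at 0, covered 9.22% of Rnaseh2a on the same strand. Whether the counting used strand is not given in the sources used here, so the counts of both genes are uncertain to that extent.

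Co-variation was taken as Pearson's r of log2(CPM + 0.5) over the 9 libraries. It describes 9 libraries that mix 3 groups differing in age and treatment, and no p-value is given. Of the 36 pairs among the 9 genes, 2 (5.56%) had an r of at least 0.7 in size, against 9.02% of all pairs among the 15337 genes with a median count of at least 50, and the median size was 0.356 against 0.327. These shares were close to those of all gene pairs, and 18 of the 36 pairs were positive. The strongest was the inverse relation of Tbk1 and Rnaseh2c, with r = -0.757 (rho = -0.900) and r = -0.686 without libraries 4 and 6, the farthest in Tbk1, and -0.649 without library 4. The other was Tbk1 with Irf3, the kinase and its substrate, with r = -0.738 (rho = -0.633), which was -0.234 without libraries 4 and 6 and -0.534 without library 4. Under both other scalings this pair fell short of 0.7 in size (-0.619 with CPM on total counts and -0.686 with DESeq2 size factors), whereas Tbk1 with Rnaseh2c did not (-0.771 and -0.735). On total counts, Sting1 with Rnaseh2a (0.719) and Irf3 with Rnaseh2c (0.710) passed. Samhd1 with Rnaseh2a turned from -0.068 to 0.731 without library 4. The sensor and adaptor, Cgas and Sting1, had r = 0.210 (0.523 without library 6 and 0.052 without library 9). Sting1 and Tbk1 had r = -0.127, which was -0.453 without library 4 and 0.093 without library 6.

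**Figure D3:**
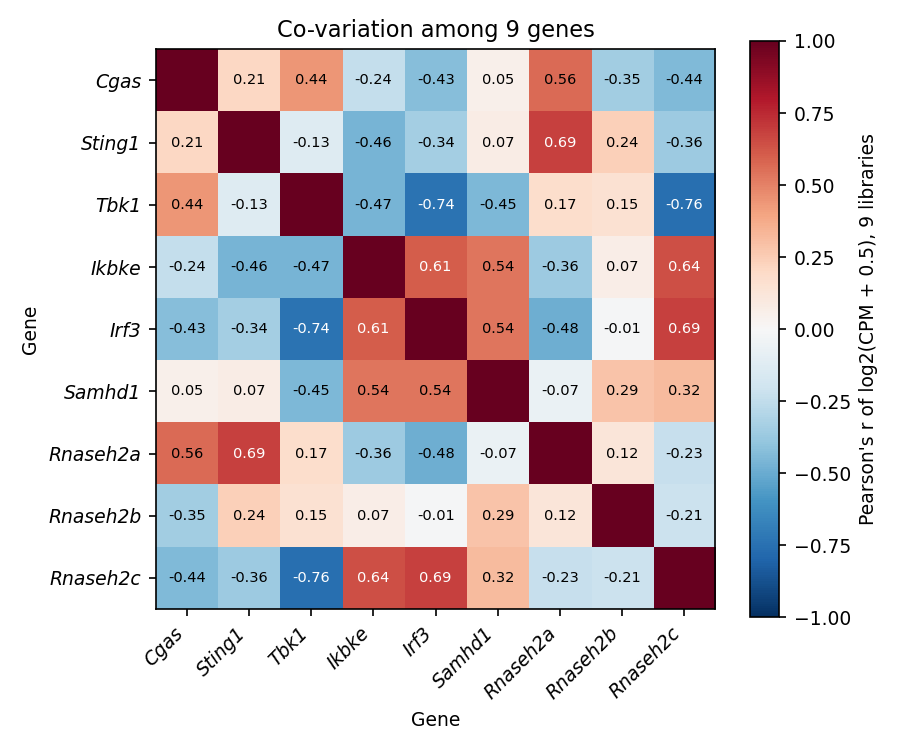
Pearson's r of log2(CPM + 0.5) between the 9 genes with counts over 9 libraries, coloured from -1 (blue) to 1 (red). Tbk1 with Rnaseh2c (-0.76) and with Irf3 (-0.74) are the only pairs past 0.7 in size on TMM-scaled library sizes, and the latter is at -0.619 on total counts and -0.686 with DESeq2 size factors.

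Over all 9 libraries, Sting1 had the highest Pearson's r with markers of microglia among the 9 genes. Its r with the summed level of 10 microglia markers was 0.856 (rho = 0.733, 0.914 without the 2 libraries farthest in the sum, and 0.828 to 0.910 when each library was left out in turn). By rank, Rnaseh2a stood slightly higher against this sum (rho = 0.750, r = 0.624). Of the 10 markers, 9 had an r of at least 0.7 with Sting1, from 0.689 for P2ry12 to 0.876 for Csf1r, the receptor for a microglial growth factor, against 8.48% of the 15336 other genes. Leaving out each library in turn gave 8 to 10 such markers, against 7.55% to 11.6% of the other genes. Rnaseh2a had 1 such marker, against 3.83% of the other genes (0 to 5 with each library left out, against 2.86% to 7.30%). The other 7 members had none, although Rnaseh2b had 3 without library 5 (4.32% of the other genes) and 1 without library 9 (4.50%). Samhd1, however, had 9 of 10 without library 4, against 11.5% of the other genes. Its median r was then 0.815, against 0.795 for Sting1 without that library (9 of 10, against 9.92% of the other genes). Among negative values, Irf3 with Tmem119 was at -0.706 (-0.645 without library 8). With the same marker, Ikbke went from -0.510 to -0.865 without library 8, and Rnaseh2c from -0.537 to -0.746 without library 3. For Cgas the highest r was 0.237 (0.553 without library 3). The summed markers lay at 305 to 397 CPM in libraries 6 to 9 and at 513 to 555 CPM in libraries 1 to 5. With fewer than 6 libraries on either side of this gap, no r was computed within a side. Sting1 also had r = -0.841 with the summed level of 13 TBK1 adaptors and NF-kB kinases and -0.797 with the summed level of the 6 hippocampal markers. That sum does not stand for each of its genes. With Prox1 alone r was -0.151 and with Wfs1 alone 0.161, and those of the other hippocampal markers are not given here. The part that the number of microglia played in the level of Sting1 was not tested. Of 153 relations between a member and a summed list, 5 (3.27%) reached 0.7 in size, as did 36 of 378 (9.52%) between a member and a single gene of the microglia, ISG, hippocampal and interferon receptor lists, against 9.02% of all gene pairs.

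**Figure D4:**
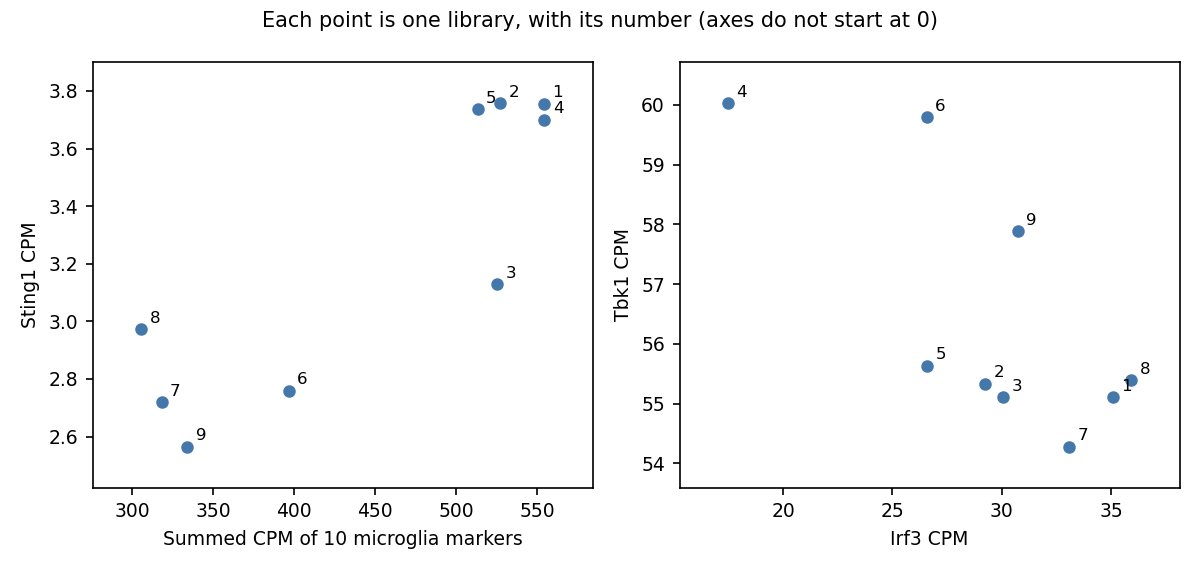
Left, Sting1 CPM against the summed CPM of 10 microglia markers. Right, Tbk1 CPM against Irf3 CPM. Each point is 1 library with its number, and axes do not start at 0. Libraries 6 to 9 lie at the lower left of the first panel (Sting1 2.57 to 2.97 CPM), and library 4 lies alone at the left of the other (Irf3 17.5 CPM).

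The 14 ISGs, products of interferon signalling, had a median ratio of highest to lowest of 4.53, against 1.39 for the members, and their summed level ran from 42.1 CPM in library 8 to 140 CPM in library 1, a 3.32-fold range. Against their sum, r was 0.697 for Sting1 (0.777 without library 4) and 0.629 for Samhd1 (0.892 without library 4). All 14 correlated positively with Sting1 (median r 0.654), 3 of them at 0.7 or above, with 0.803 for Xaf1 and 0.770 for Rsad2, against 8.48% of the other genes. This count ran from 2 to 11 with each library left out, and was 11 without library 4, 10 without library 6 and 9 without library 3, where 9.92%, 11.6% and 11.1% of the other genes reached 0.7. All 14 also correlated positively with Samhd1 (median r 0.649), and 3 reached 0.7, with 0.770 for Isg15, against 5.02% of the 15336 other genes. Without library 4 all 14 reached 0.7 with Samhd1 (0.767 to 0.941), against 11.5% of the other genes, and without any other single library 1 to 6 did. Samhd1 is itself interferon-inducible, and in the interferon receptor pathway its r was 0.810 with Irf1 and 0.848 with the summed list of 14 genes (0.659 without library 4 and 0.665 without libraries 3 and 4, the farthest). Rnaseh2a and Rnaseh2b were also positive with all 14, with a single ISG past 0.7 in each case, against 588 of the 15336 other genes for Rnaseh2a (3.83%) and 212 for Rnaseh2b. That number was 5 without library 4 for Rnaseh2a (4.56% of the other genes), and for Rnaseh2b it was 13 without library 9 (4.50%) and 7 without library 5 (4.32%). For Cgas, Tbk1, Ikbke, Irf3 and Rnaseh2c no ISG reached an r of 0.7, with or without any single library, and among negative values Tbk1 with Isg15 (-0.573) was at -0.751 without library 7. Irf3 had its highest r among the receptor pathway genes with Irf9, a transcription factor of the interferon response (0.943, 0.752 without library 4 and 0.618 without libraries 4 and 8). With Ifnar1, a chain of the interferon receptor, its r of 0.878 was 0.439 without library 4 and -0.055 without libraries 4 and 5, and with Neurod1 its r of 0.848 was 0.609 without library 4.

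The genes most like each member over the libraries were taken from the whole table. The 3 most like Sting1 were Nsa2, Sntg2 and S100a11 (r = 0.974, 0.972 and 0.970), those of Irf3 were Clk2, Dhx16 and 2810002D19Rik (0.980, 0.976 and 0.974, and 0.918, 0.939 and 0.894 without library 4), and those of Tbk1 were Pard3b, Gm50268 and Cfap251 (0.980, 0.948 and 0.927). Cgas was most like Gm7361, Pkia and Gm14004, Ikbke most like Ttc5, Sfr1 and Cog4, and Samhd1 most like Gm17249, Ap4e1 and Gm57184. Among the subunits, Rnaseh2a was most like Ilf2, Gid8 and Nemf, Rnaseh2b most like Gm43034, Dtwd2 and Pter, and Rnaseh2c most like Sf3a3, Prdm9 and Fam162a. No gene of the 10 was among these 27. An r of at least 0.9 was reached with Irf3 by 124 of 15336 genes, with Sting1 by 53, with Samhd1 by 47 and with Cgas by 7. The best of 15336 values over 9 points is high for almost any gene.

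The promoters of 8 of the 10 genes, all but Sting1 and Rnaseh2b, were read from a RefSeq table of GRCm38.p6 (250 bases before the start). On both strands, 5 motifs were searched. The interferon-stimulated response element (ISRE) core, GAAA repeated after any 2 bases, was found in none of these 8 genes and in 2.98% of the 32851 promoters. The interferon-gamma-activated (GAS) element TTCNNNGAA was found in Samhd1 and in 7.02% of all promoters. Printed here because Samhd1 had high r values with Irf1 and Isg15, its window lies at chr2:157135312-157135341 on the minus strand, and the capitals mark the motif.
Samhd1 promoter: acaccaccctTTCGGAGAAacacaagggcg
GC boxes (GGGCGG) were found in Tbk1, Irf3, Trex1, Samhd1 and Rnaseh2a and in 32.7% of all promoters. The window of Irf3 (chr7:44997566-44997595, plus strand) and of Tbk1 nearest to its start (chr10:121586850-121586879, minus strand), the most abundant members, are printed with the box, which reads GGGCGG on the opposite strand, in capitals.
Irf3 promoter: ccgacacggcaaCCGCCCcaacgtcgaagg
Tbk1 promoter: ccttagctcctcCCGCCCgcactggagact
A CCAAT box was found in Rnaseh2a (33.8% of promoters) and an NF-kB site in Trex1 (7.25%). The GAS and GC box of Samhd1 do not share bases. A match of this kind is a description of letters and not a binding site.

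The 108 other listed pathway genes were mostly present: 99 had a median of at least 1 TPM, and the median ratio of highest to lowest library was 1.33, against 1.39 for the members and 1.48 for all 19912 genes with a median count of at least 10. Ifnb1 and Ifna4, which encode the interferons that IRF3 and IRF7 induce, were at 0 in all 9 libraries. Of the 13 cGAS regulators, Pqbp1, an adaptor for HIV DNA sensing, was the most abundant (128 TPM) and Trim14 the least (0.423 TPM) and the widest (9.54-fold), and Hdac3 had the narrowest range (1.12-fold). Among the 11 genes of cGAMP turnover and transport, Lrrc8b, a subunit of the volume-regulated anion channel, was the highest at 66.6 TPM. Enpp3 varied the most (3.53-fold) among the 10 of them with a median count of at least 10. The 22 genes of STING trafficking had the smallest median ratio of highest to lowest of the lists (1.17), with 1.08 for Copa, a coatomer subunit, and 2.31 for Rhbdf2, and Arf1 was the highest at 313 TPM. Of the 13 TBK1 adaptors and NF-kB kinases, Tbkbp1 was the highest (78.4 TPM), Relb varied 1.84-fold and Tank, a TBK1 scaffold, 1.09-fold.

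The remaining lists held both steady and variable genes. Irf7, the interferon-induced factor that amplifies the response, ran from 1.93 to 12.5 CPM (6.46-fold), whereas Jak1 varied 1.11-fold. Among 16 other DNA sensors, Zbp1 ran from 0.149 CPM in library 8 to 2.12 CPM in library 1, and Dhx9 was the most abundant at 58.5 TPM. Among 19 other nucleic acid enzymes, the lysosomal exonuclease Pld3 was the highest at 417 TPM and Dnase1l2 varied 6.74-fold, from 1.93 CPM in library 4 to 13.0 in library 9. Markers of other cells varied too: 6 choroid plexus genes summed to 119 to 1163 CPM, 8 peripheral immune markers to 5.94 to 20.8, and 5 of red blood cells to 10.6 to 45.2. Over all 9 libraries no member reached an r of 0.7 with any of those 3 sums. With the peripheral immune markers, however, r was 0.616 for Sting1 (0.815 without library 4) and 0.685 for Samhd1 (0.758 without library 6), and with the red blood cell markers Samhd1 had 0.540 (0.722 without library 5). The part of these cells in the members' values was not tested. Endothelial markers had r = -0.751 with Irf3, which was 0.002 without library 4.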

How the data were processed

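The authors prepared stranded mRNA libraries from 800 ng of hippocampal RNA. The submitters' notes name GRCm39, STAR, featureCounts and DESeq2. They deposited raw counts per gene and, in a second table, normalized counts, a depth-scaled signal equal to the deposited counts divided by DESeq2 size factors. Both hold 9 columns, which were treated as unlabelled hippocampi, so no test between groups was run. The 10 genes and the gene lists were chosen with earlier results of these data known. Of 57010 identifiers, 56310 matched GENCODE M39.

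CPM used TMM factors (edgeR 4.0.16, R 4.3.3), and TPM used the union of exons. Correlations were Pearson's r of log2(CPM + 0.5), with genes of a median count of at least 50 as background. Python 3.11.15, pandas 2.3.3, SciPy 1.17.1 and DESeq2 1.42.0 were used, and measures were tested on simulated data. Named genes were the 10, the highest, lowest, widest and narrowest of each list, genes at 0, ISGs and microglia markers, and the 3 most like each member. No 2 libraries agreed within sampling noise.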

Additional observations from a re-analysis of the deposited data

Results flagged for a closer look

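Each of 26 quantities (the members and the summed lists) was examined for a library far from the other 8, which chance gives in about 1 of 20 groups, and the 9 libraries mix 3 groups. Irf3 was lowest in library 4 at 17.5 CPM, with 26.6 CPM in the nearest library, a gap of 0.4932 of the whole range, barely above the critical value of 0.493 for 9 samples. The endothelial markers were highest in library 4 at 300.4 CPM in sum, with 223 in the nearest library (a gap of 0.578). The red blood cell markers were highest in library 5 at 45.2 CPM in sum, with 27.0 in the nearest library (a gap of 0.527).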

How the results depend on the processing

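No paired analysis was possible because the columns carry no replicate label and no groups were compared. With canonical transcript lengths, 6 of the 10 genes kept their place in the order by TPM, and the median TPM of 6 of 10 moved. The order kept all 10 places without any single library. The number of pairs with an r of at least 0.7 in size was 2, was 4 with Spearman's rho and 1 with DESeq2 size factors, and ran from 1 to 6 without single libraries. On total counts it was 3, and only Tbk1 with Rnaseh2c was among the pairs under all 3 scalings. It was 1 without library 4, 4 without library 6, 6 without library 7, 5 without library 8 and 4 without library 9. The count therefore depends on single libraries, and the cause was not tested. The ratio of highest to lowest moved by more than the counting error of its 2 libraries in 4 of 81 cases of leaving out a library, to 1.65 for Cgas (library 3), 1.35 for Irf3 and 1.23 for Samhd1 (library 4) and 1.13 for Rnaseh2a (library 9). Percentiles of the dispersion index moved for 8 of 9 genes without the filter on low counts. Other scalings and a pseudocount of 2 moved none of the 36 r values by more than the approximate standard error of r. Cgas, with 35 to 79 counts per library, is limited by depth. The counts of ISGs and microglia markers and the dispersion indices without single libraries were added after the data were seen.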

Other observations

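The microglia marker sums that Sting1 followed, in libraries 1 to 9, were 554, 527, 525, 555, 513, 397, 318, 305 and 334 CPM, and Sting1 was 3.76, 3.76, 3.13, 3.70, 3.74, 2.76, 2.72, 2.97 and 2.57 CPM. Library 3 had a high marker sum with a middle value of Sting1.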
